A study of Arabidopsis thaliana with 4 samples.

Results

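The callose synthase genes examined here are 8 members of the GSL (glucan synthase-like) family of Arabidopsis thaliana, taken from a list of locus codes. They are GSL1 (AT4G04970), GSL3 (AT2G31960), GSL5 (AT4G03550, also PMR4), GSL6 (AT1G05570, also CALS1), GSL7 (AT1G06490, also CALS7), GSL8 (AT2G36850, also CHORUS), GSL10 (AT3G07160, also CALS9) and GSL12 (AT5G13000, also CALS3). In the files' coordinates, whose positions overlap the TAIR10.1 genes of the same code, GSL1 spans chr4:2537039-2543131 and GSL5 chr4:1573348-1579696 on the plus strand. GSL3 spans chr2:13588887-13600229 and GSL7 chr1:1978762-1989409, also on the plus strand. GSL6 spans chr1:1647706-1659437, GSL8 chr2:15454697-15469889, GSL10 chr3:2264945-2279383 and GSL12 chr5:4110295-4121427, all on the minus strand. All 8 were found among the 23381 loci with at least 1 read, and the other 4 genes of the 12-gene family are described with the pathway. The study sequenced polyadenylated RNA from whole roots of the wild-type accession Col and of coi1-2, a mutant line of the jasmonate receptor gene COI1, each kept with or without aluminium (Al).

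Each of the 4 groups, Col and coi1-2 roots that got no Al and Col and coi1-2 roots that got Al, is 1 library from a pool of about 500 seedlings. All seedlings were 6 days old and stood in the same dilute nutrient solution at pH 5.0, with AlCl3 at 0 or 10 µM. The treatment protocol gives 6 h of exposure for both AlCl3 levels, the titles give 0 h for the libraries without Al, and the design text gives 24 h, so the time is not settled by the labels. The mutant is represented by a single line, and no group has a second library. In bulk roots, fewer cells of a type and less RNA per cell cannot be told apart.

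Callose is a β-1,3-glucan that plants lay down at the cell plate of dividing cells, around plasmodesmata, on sieve plates of the phloem, in pollen walls and at sites of wounding or fungal attack. Its synthases are very large plasma membrane proteins that polymerise glucose from UDP-glucose, and family members differ in the place where they act. Callose deposits in root tips are a widely used marker of Al injury. COI1 is the F-box protein through which jasmonate is perceived.

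For 3 of the 8 genes the deposited reads cover only a small length of the transcript. It is no greater than the length under read-length words (49 bases) that differ between 2 RefSeq transcripts of the locus. The stretches present in one of these transcripts and absent from the other are shown, because the reads may come from them and their borders. The tables give the covered length and not the position of reads, so this location is inferred, and for GSL3 it rests on 1 and 3 reads. In GSL6 the reads covered 206 bases in Col and 212 bases in coi1-2 without Al, of a transcript of 6231 bases. RefSeq lists for this locus a transcript with 123 coding bases that another lacks, and 216 bases lie under the 49-base words (49 bases is the read length) that differ between the pair. In GSL3 the covered length was at most 68 bases, and its 2 compared transcripts differ by a stretch of the same length, 123 bases. In GSL12 the reads covered 345 to 394 bases of 6160, and its transcripts differ by 136 coding bases in 4 segments, with 420 bases under distinct words. The sequences below are from RefSeq on TAIR10.1, read on the coding strand. The GSL6 stretch is chr1:1655163-1655285 on the minus strand, that of GSL3 is chr2:13593188-13593310 on the plus strand, and the 2 longest GSL12 segments are chr5:4110916-4110978 and chr5:4113473-4113526 on the minus strand. Capitals mark a GT at the start and an AG at the end, the letters that border most introns.

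GSL6 stretch: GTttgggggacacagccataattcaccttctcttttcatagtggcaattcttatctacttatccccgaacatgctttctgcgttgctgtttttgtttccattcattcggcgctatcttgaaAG
GSL3 stretch: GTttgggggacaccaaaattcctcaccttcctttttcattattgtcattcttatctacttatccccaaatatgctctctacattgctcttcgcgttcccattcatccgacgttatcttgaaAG
GSL12 segment of 63 bases: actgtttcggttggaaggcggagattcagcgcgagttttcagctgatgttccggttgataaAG
GSL12 segment of 54 bases: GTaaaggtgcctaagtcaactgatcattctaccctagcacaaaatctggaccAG

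The GSL6 and GSL3 stretches are identical at 96 of 123 bases (78.0%), aligned without a gap. Both begin with GT and end with AG, and each is coding sequence in one RefSeq transcript and intron in the other. The libraries list only 1 transcript for each of these 3 loci, the form that holds the stretch. For GSL6, GSL12 and GSL3, a change in the whole gene and a change in the share of one transcript form cannot be told apart. The transcripts of GSL1, GSL5, GSL7, GSL8 and GSL10 were covered over a larger part of their length. It went from 15.4% in GSL7 in Col with Al to 98.2% in GSL5 in Col without Al. GSL6 shares 404 bases with a miRNA locus on the same strand, GSL8 shares 186 bases with a gene on the other strand and GSL3 overlaps a long non-coding RNA by 347 bases on the other strand, and the library protocol describes no step that keeps strand.

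Lists of 4 values give Col first, in the order no Al and Al, and then coi1-2 in the same order. The libraries held 7.80, 6.93, 7.42 and 7.19 megareads (Mreads) assigned to transcripts. Ratios with Al over without Al were lower in long transcripts than in short ones, and all 8 genes are longer than 99.5% of the 17514 loci with at least 1 RPKM (reads scaled by transcript length in kilobases and by library total) in some library. In Col, the median log2 ratio of RPKM + 0.5 with Al over without Al went from 0.29 for transcripts of up to 1000 bases to −1.58 for those of 4000 to 8000 bases. In coi1-2 it went from 0.09 to −1.06. Reads of long transcripts were also less evenly spread with Al: in loci of 4000 to 8000 bases with at least 100 reads, the covered length was a median 93.0%, 71.7%, 94.4% and 82.1% of that for evenly placed reads. Loci of 1000 to 2000 bases stayed between 93.1% and 93.5%. Each value for a GSL gene is therefore set beside those of loci of 4000 to 8000 bases. The part of RNA quality in the results was not tested.

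**Figure D1:**
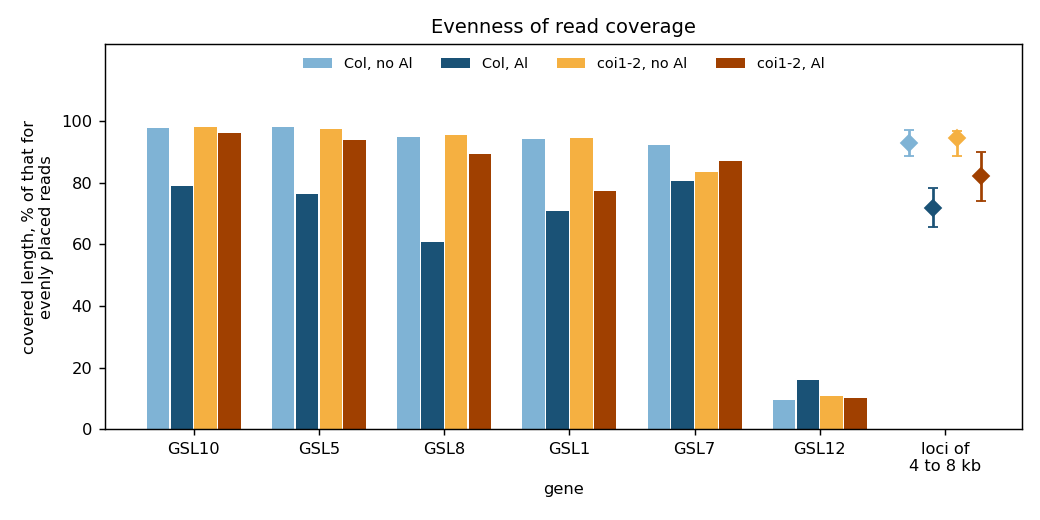
Covered length of each gene as a percentage of the length that evenly placed reads would cover (bars), by library, with the median and quartiles of loci of 4000 to 8000 bases with at least 100 reads (diamonds with bars). GSL8 dropped to 60.7% in Col with Al, GSL10 stayed at 96.2% in coi1-2 with Al, and GSL12 is at 9.49% to 16.1%; GSL7 and GSL12 have fewer than 100 reads in some libraries.

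With Al, GSL8 in Col and GSL1 in coi1-2 were furthest from even coverage among the members with at least 100 reads in every library. The covered length of GSL8 went from 94.9% of the even value to 60.7% in Col with Al, and from 95.6% to 89.3% in coi1-2. GSL5 went from 98.2% to 76.2% in Col and from 97.5% to 93.7% in coi1-2. GSL10 went from 97.7% to 79.0% and from 98.0% to 96.2%. GSL1 went from 94.1% to 70.7% in Col and from 94.4% to 77.3% in coi1-2, near the long-locus medians of these libraries.

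GSL10 had the highest whole-transcript level of the 8 genes in all 4 libraries, followed by GSL5 and GSL8. GSL10, needed for the asymmetric division of pollen, had 28.2, 19.4, 34.5 and 40.9 RPKM. GSL5, which makes the callose of wound and pathogen papillae, had 23.8, 16.9, 20.5 and 28.1 RPKM. GSL8, required for cytokinesis and for closing plasmodesmata, had 22.6, 9.51, 24.8 and 20.6 RPKM. These 3 genes lie above the other 5 in every library. The counting intervals of GSL5 and GSL8 overlap in Col without Al, and those of GSL10 and GSL5 overlap in Col with Al. GSL1, which acts with GSL5 in pollen development, had 11.4, 3.19, 10.6 and 4.25 RPKM.

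The remaining 4 genes were low over the whole transcript. GSL12, which sets callose at plasmodesmata in the root, had 2.85, 1.34, 2.47 and 2.28 RPKM. GSL7, which makes the callose of sieve plates, had 2.05, 0.626, 2.29 and 1.18 RPKM. GSL12 and GSL7 overlap in their counting intervals in both libraries without Al. GSL6, a synthase of the cell plate, had 0.864, 0.0232, 1.103 and 0.0446 RPKM, from 42, 1, 51 and 2 reads. GSL3 had 1 read in Col and 3 reads in coi1-2 without Al and none in either library with Al, where a count of 0 allows up to 3 reads, so no fold is given for it.

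A further scale counts only the words that differ between the compared RefSeq transcripts, a rule inferred from the covered length and not tested. In GSL10 and GSL7, 99.2% of the words of a RefSeq transcript are also in another transcript of the locus. Reads still covered up to 98.0% of GSL10 and 50.2% of GSL7, so the rule does not describe these genes and was not applied to them. GSL12 came to 63.6, 29.8, 55.2 and 50.9 RPKM over its 276 distinct 49-base positions. GSL10 was not rescaled in this way, so these values cannot be ordered against its whole-transcript level. GSL6 came to 32.0, 0.859, 40.9 and 1.65 RPKM over 168 positions. This scale was chosen after the coverage had been seen.

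**Figure D2:**
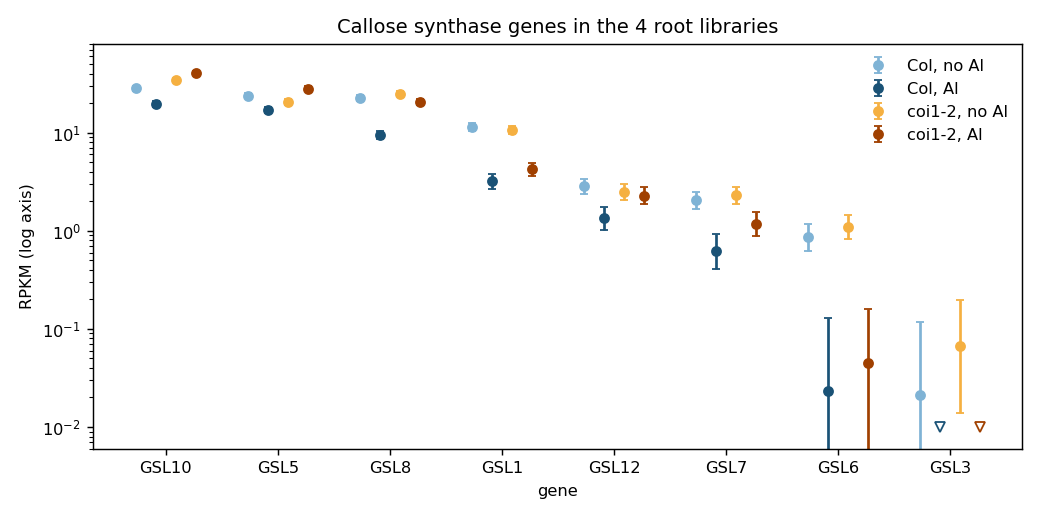
RPKM of the 8 genes (log axis) in each library, with exact Poisson 95% intervals of the reads, which cover counting error only. Open triangles at the bottom mark libraries with 0 reads. GSL10, GSL5 and GSL8 lie highest, and GSL6 drops from 0.864 and 1.103 RPKM without Al to 0.0232 and 0.0446 RPKM with Al.

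The Al effect over both genotypes together was tested with edgeR's quasi-likelihood test on all 4 libraries. Genotype was a term, and 1 residual degree of freedom was left. The fit does not test Al within each genotype. Of the 7 members with enough reads, GSL6, GSL1 and GSL7 fell and none rose. Over the 16477 loci tested, 26.3% fell and 25.5% rose. Over the 406 tested loci of 4000 to 8000 bases, 64.5% fell and 4.19% rose, with a median log2 fold change of −1.13. GSL6 fell by 4.28 on the log2 scale (SE 0.68, edgeR adjusted p = 2.8e-08). GSL1 fell by 1.06 (SE 0.29, edgeR adjusted p = 0.0011), close to the median of the long loci. GSL7 fell by 0.80 (SE 0.36, edgeR adjusted p = 0.0495), a call that ended with DESeq2 size factors, without the filter on low counts, on the isoform with the most reads and in DESeq2.

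The other 4 members did not pass. The log2 fold change was 0.50 in GSL5 (SE 0.28, edgeR adjusted p = 0.135), 0.37 in GSL10 (SE 0.28, 0.277), −0.08 in GSL12 (SE 0.32, 0.853) and −0.24 in GSL8 (SE 0.28, 0.494). All 4 lie above the median of the long loci.

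With a per-library offset that takes out the trend on transcript length, GSL5, GSL10, GSL12 and GSL8 rose and GSL6 fell. A rise or fall in this fit is relative to loci of similar length. In that fit 26.9% of all loci rose and 24.4% fell, and 31.3% of the long loci rose and 20.4% fell, with a median of 0.04 among the long loci. GSL5 rose by 1.82 (SE 0.20, edgeR adjusted p = 5.19e-16). GSL10 rose by 1.69 (SE 0.20, edgeR adjusted p = 5.06e-14). GSL12 rose by 1.26 (SE 0.27, edgeR adjusted p = 1.63e-05) and GSL8 by 1.11 (SE 0.20, edgeR adjusted p = 3.1e-07). GSL6 fell by 3.05 (SE 0.71, edgeR adjusted p = 0.000111). GSL1, at 0.26, and GSL7, at 0.51, did not pass (edgeR adjusted p = 0.298 and 0.163). GSL6 is the member that fell in both fits. The offset uses the whole transcript length, which for GSL6 and GSL12 is not the length the reads come from. In deposited RPKM, GSL8 (22.6, 9.51, 24.8 and 20.6) and GSL12 (2.85, 1.34, 2.47 and 2.28) were lower with Al in both genotypes. GSL5 and GSL10 were lower with Al in Col and higher in coi1-2.

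**Figure D3:**
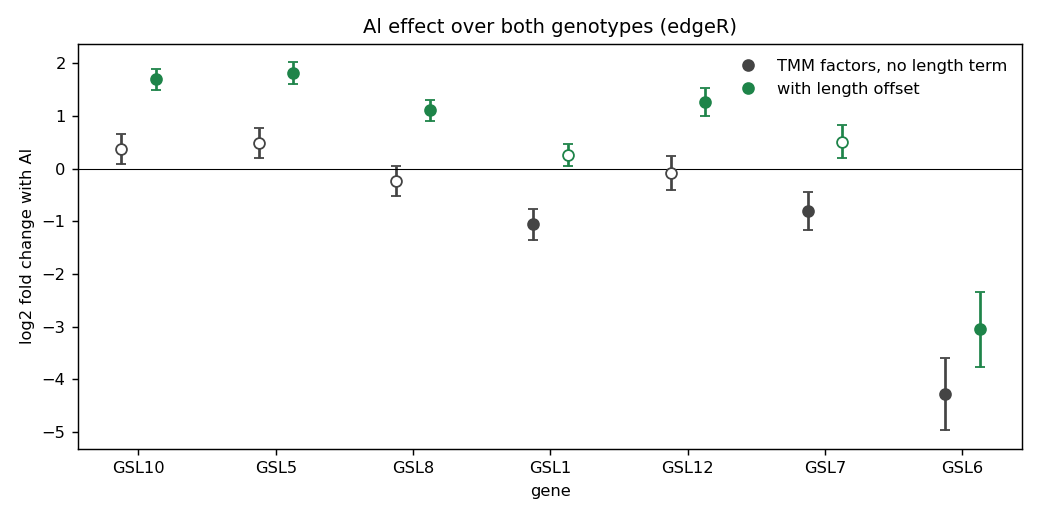
Log2 fold change with Al over both genotypes from edgeR, with standard errors, for the 7 members tested. Grey points have no length term and green points have the length offset; filled points passed an adjusted p of 0.05. GSL6 is filled below 0 on both scales, and GSL5, GSL10, GSL8 and GSL12 are filled above 0 with the offset.

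Within each genotype 1 library stands against 1, so the ratios have no test. A gene is called here when its ratio of RPKM + 0.5 is at least 2-fold and the counting interval of its reads leaves out no change. In Col, 4 of the 7 members were lower with Al and none was higher, beside 35.8% lower and 11.4% higher among all loci and 76.4% lower among long loci. GSL1 had a log2 ratio of −1.68, GSL6 of −1.38, GSL8 of −1.20 and GSL7 of −1.18. GSL12 was at −0.87, GSL10 at −0.53 and GSL5 at −0.48, all above the long-locus median of −1.58. With RPKM divided by TMM factors, 6 members pass the minimum of 1 RPKM and GSL1 alone of them was called lower, beside 20.4% of all loci. GSL6 is below that minimum on this scale, and its ratio was −1.20 with a read interval of −9.89 to −1.999. Centred on the median of the long loci, no member was called lower and GSL5 and GSL10 were higher. Of the long loci, 8.33% were lower and 10.3% higher, and of all loci 3.99% and 45.6%. GSL6 was at 0.20 on this scale, but its read interval was −8.98 to −1.08.

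In coi1-2, 2 of the 7 members were lower with Al and none was higher, beside 23.2% lower and 9.37% higher among all loci and 52.6% lower among long loci. The 2 were GSL6, at −1.56, and GSL1, at −1.22. GSL7 was at −0.73, GSL8 at −0.26 and GSL12 at −0.10. GSL5, at 0.44, and GSL10, at 0.24, lay above 0. With TMM factors none of the 6 members above the minimum was lower, beside 14.5% of all loci, and GSL6, below it, was at −1.37 with a read interval of −7.34 to −2.33. Centred on the long loci, no member was called lower and GSL5 and GSL10 were higher. Of the long loci, 5.46% were lower and 10.3% higher, and of all loci 4.45% and 35.8%. GSL6 was at −0.50 on this scale, with a read interval of −6.66 to −1.65. Measured in reads, with their library totals, GSL6 was 37.3-fold lower with Al in Col (95% counting interval 6.34 to 1508) and 24.7-fold lower in coi1-2 (6.50 to 209.6).

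Ranked among the 348 long loci with at least 1 RPKM, GSL5 stood at percentile 90.8 of the Al ratio in Col and 95.7 in coi1-2. GSL10 stood at 89.9 and 93.7, GSL12 at 81.6 and 88.8, and GSL8 at 70.4 and 85.9. GSL7 stood at 71.0 and 67.0, GSL1 at 45.7 and 42.0, and GSL6 at 63.2 and 25. These ranks describe the libraries and are not a test. The ratio of GSL7 in Col, at 0.626 RPKM with Al, was −1.18 with 0.5 RPKM added and −1.57 with 0.1. How its rank moves with this constant was not tested. The ranks of GSL6 rest on the constant added to RPKM, which is larger than its level with Al. They do not show how far its reads fell beside the long loci. Scaled by library totals, its reads were 37.3-fold lower with Al in Col and 24.7-fold lower in coi1-2.

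**Figure D4:**
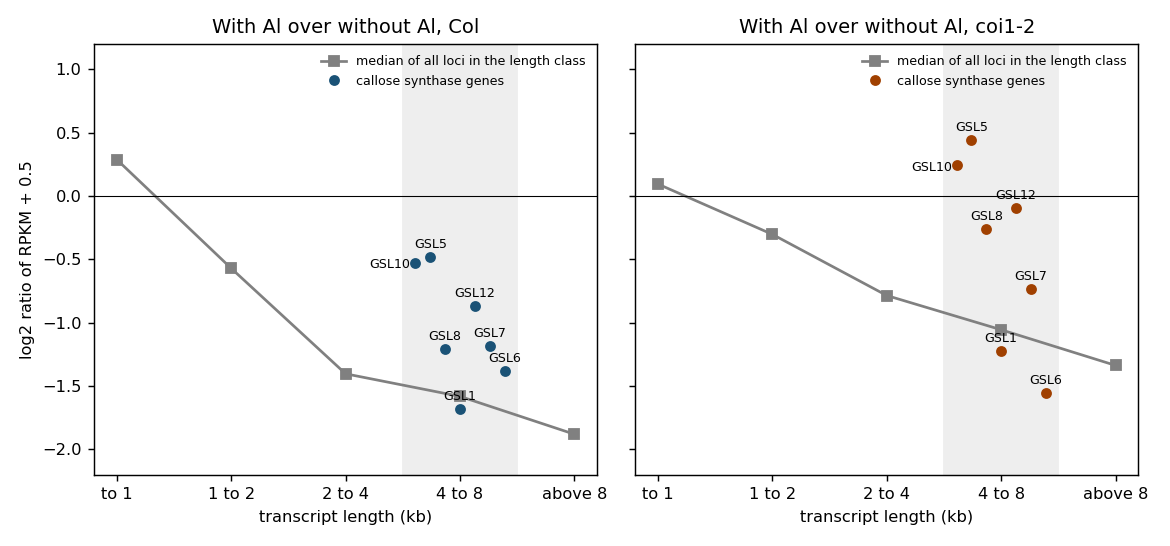
Log2 ratio of RPKM + 0.5 with Al over without Al in Col (left) and coi1-2 (right). Squares are the median of all loci in each length class and circles are the GSL genes, spread sideways within their class of 4 to 8 kb (shaded). GSL5 and GSL10 lie above the class median of −1.58 in Col and of −1.06 in coi1-2, and GSL1 lies near it in both.

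Whether the mutation changed the genes was read from the other term of the edgeR fit, and none of the 7 members passed. Over all loci, 0.158% were higher and 0.431% were lower in coi1-2, and 0.443% and 0.886% with the length offset. The log2 fold changes lay between −0.01 in GSL1 and 0.53 in GSL10, whose edgeR adjusted p of 0.66 was the lowest. Their median was 0.40 over the tested loci of 4000 to 8000 bases and 0.01 over all loci tested. Of these long loci, 0.985% were higher and 0.493% lower in coi1-2. No member had an unadjusted p under 0.05 in edgeR or DESeq2, 1 had in limma and 1 had with the length offset, and none passed after adjustment in any of these fits.

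Without Al, none of the 7 members differed 2-fold between coi1-2 and Col, beside 1.43% of loci higher and 1.34% lower. With Al, none was lower, beside 1.87% of loci, and GSL8 (log2 ratio 1.08) and GSL10 (1.05) were higher in coi1-2, beside 7.87% of all loci and 26.7% of long loci, whose median was 0.75. Neither call held with TMM factors, beside 3.05% of all loci and 7.29% of long loci. Neither held when centred on the long loci, beside 0.200% of all loci and 0 long loci. GSL5 was at 0.72, GSL12 at 0.60, GSL7 at 0.58, GSL1 at 0.36 and GSL6 at 0.06. Col with Al is also the library with the least even coverage of long loci, and the part of this in the ratios was not tested.

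The difference of the Al ratios, coi1-2 minus Col, reached 1 log2 unit in none of the 7 members, beside 7.01% of loci higher and 1.91% lower. It was 0.94 in GSL8, 0.93 in GSL5, 0.77 in GSL12 and 0.77 in GSL10, where the median of the long loci was 0.63. It was 0.46 in GSL1, 0.45 in GSL7 and −0.17 in GSL6. With 4 libraries this difference has no test.

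Of the other 4 genes of the family, GSL9 fell, GSL11 did not pass and GSL2 and GSL4 were too low to test. GSL9 had 1.12, 0.0771, 0.984 and 0.0248 RPKM, from 49, 3, 41 and 1 reads. Its log2 fold change was −3.80 (SE 0.65, edgeR adjusted p = 2.12e-07), and −2.54 with the length offset. GSL11 had 7.83, 4.28, 9.74 and 7.98 RPKM and a log2 fold change of −0.06 (edgeR adjusted p = 0.872). With the length offset it rose by 1.25 relative to loci of similar length (edgeR adjusted p = 3.45e-08).

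Genes around callose, from lists put together with earlier results of these data known, moved in both directions with Al, as did 25.5% (rose) and 26.3% (fell) of all loci tested. Of 3 tested β-1,3-glucanases, which break callose down, none passed in either direction. Of 4 tested callose-binding proteins of plasmodesmata, PDCB4 rose (log2 fold change 1.09, edgeR adjusted p = 0.000714) and PDCB5 fell (−0.93, edgeR adjusted p = 0.0308). With the length offset, 1 rose and 3 fell, beside 26.9% and 24.4% of all loci tested. PDCB1 (edgeR adjusted p = 0.0401) and PDCB3 (edgeR adjusted p = 0.00352) were added to those that fell. Of 6 tested plasmodesmata-located proteins, PDLP1 and PDLP5 rose and PDLP2 fell. PDLP1 had 0.740, 16.7, 1.33 and 15.7 RPKM, higher in both Al libraries, and a log2 fold change of 4.47 (SE 0.42, edgeR adjusted p = 2.1e-19). PDLP5, which closes plasmodesmata by way of callose, had 57.1, 121, 70.5 and 157 RPKM and a log2 fold change of 1.63 (SE 0.29, edgeR adjusted p = 4.84e-07). PDLP2 had a log2 fold change of −1.50.

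Of 6 tested genes of UDP-glucose supply, the sucrose synthase gene SUS1 rose (2.12, edgeR adjusted p = 0.00075) and UGP1, a UDP-glucose pyrophosphorylase gene, fell (−0.79, edgeR adjusted p = 0.0191). With the length offset UGP1 did not pass (−0.44, edgeR adjusted p = 0.075). In that fit 2 of the list rose and none fell, beside 26.9% and 24.4% of all loci tested. Of 10 genes that act with GSL5 or upstream of callose in defence, 3 rose and 2 fell, shares near those of all loci. CYP81F2, of indole glucosinolate synthesis, had 6.70, 29.6, 4.07 and 44.4 RPKM and rose by 3.29 (edgeR adjusted p = 2.48e-18). The syntaxin gene PEN1 rose by 1.40 and the kinase gene MPK3 by 0.85. The flagellin receptor gene FLS2 fell by 2.71 and the myrosinase gene PEN2 fell by 1.50. With the length offset, 6 rose and 2 fell, beside the same 26.9% and 24.4% of all loci tested.

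Of 8 genes of cell plate formation, where GSL6 and GSL8 are known to act, 5 fell and none rose. Of all loci tested, 26.3% fell and 25.5% rose. The kinesin genes HIK, POK2 and POK1 were among the 5 that fell, with log2 fold changes of −2.59, −2.23 and −2.17. POK1 has 6462 bases and POK2 8598. With the length offset, 3 fell and 2 rose, beside 24.4% and 26.9% of all loci tested. POK2 (−0.82, edgeR adjusted p = 0.113) and POK1 (−0.91, edgeR adjusted p = 0.0993) did not pass with the offset. The median log2 fold change of the list was −1.78, against −0.03 over all loci tested and −1.13 over those of 4000 to 8000 bases.

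Markers of cell types moved with Al beside these genes, where 25.5% of all loci tested rose and 26.3% fell. Of 10 genes of dividing cells, 7 fell and 1, CDKB2;2, rose (edgeR adjusted p = 0.0448, and 0.0851 with the length offset), and their summed level was 241, 124, 198 and 141 RPKM. The log2 fold change was −1.87 in CYCB2;1, −1.67 in CYCB1;1 and −1.50 in the cell plate syntaxin gene KNOLLE, which is also on the list of cell plate genes. Of 9 tested phloem markers, SUC2, the sucrose loader, rose by 1.34 and none fell, and the summed level was 124, 97.3, 139 and 139 RPKM. Of 6 xylem markers, 1 (CESA4) fell by 0.82 without the length offset and was at 0.12 with it (edgeR adjusted p = 0.648), with sums of 143, 79.4, 136 and 109.6 RPKM.

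Root hair markers fell in 6 of 8 cases, led by COW1 at −3.32, EXPA7 at −3.01 and RHD2 at −2.48, with summed levels of 1055, 539, 1105 and 308 RPKM. Endodermis markers fell in 7 of 8 cases, among them CASP4 at −3.03 and PER64 at −2.71, with sums of 906, 115, 951 and 191 RPKM. Root cap markers fell in 3 of 4 cases, among them FEZ at −1.70, BRN2 at −1.63 and CEL5 at −1.48 (edgeR adjusted p = 0.0499, and 0.108 with the length offset), with sums of 48.3, 13.6, 46.9 and 15.1 RPKM. These root markers were present in all 4 libraries. Green shoot markers rose in 8 of 8 tested cases, led by LHCB1.1 at 4.51, LHCB2.2 at 4.31 and LHCB2.1 at 4.04, with sums of 104, 443, 132 and 296 RPKM and LHCA1 at 0 in every library. Of all loci tested, 26.3% fell and 25.5% rose. With the length offset, 7 root hair, 7 endodermis, 3 root cap and 7 dividing cell markers fell, beside 24.4% of all loci. In that fit 7 green shoot and 2 phloem markers rose, beside 26.9% of all loci. No listed gene passed for genotype. The part of these cell types in the results on the GSL genes was not tested.

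The loci whose profile over the 4 libraries was most like each member, among 12586 loci with at least 5 RPKM in some library, are given by the distance between centred log2(RPKM + 0.5) values. The nearest to GSL12 were AUG6 (0.0059) and AT5G63930 (0.0272), and the nearest to GSL7 were AT5G41060 (0.0096) and AT3G59290 (0.0304). The GSL7 level in Col with Al, 0.626 RPKM, is near the added 0.5 RPKM. GSL1 was nearest to AT2G21090 and AT1G11210, both at 0.0416 to 0.0417. GSL5 was nearest to MES7 (0.0518) and AT5G11140 (0.0804). GSL8 was nearest to SWI3C (0.0548) and REF4 (0.0573), and GSL10 to NRB4 (0.0789) and ckl5 (0.0877). GSL6 was nearest to AT1G19990 (0.0597) and PME2 (0.0629), a likeness that rests on the added 0.5 RPKM. In reads, GSL6 was 37.3-fold lower with Al in Col and 24.7-fold lower in coi1-2. PME2 had 61.1, 23.3, 69.5 and 23.0 RPKM, and AT1G19990 had 9.19, 3.39, 11.3 and 3.58 RPKM.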

How the data were processed

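Each library is 1 deposited table with a length, position, coverage, read count and RPKM per transcript. Per the file headers, the deposited counts are uniquely assigned reads, the authors' RPKM scales them by transcript length and library total, and the deposited coverage is the percent of transcript length with reads. Per the labels' protocols, RNA was enriched on oligo(dT), fragmented and primed with random hexamers; what aligned the reads, and to which build, is not given in the sources used here. File positions overlap the RefSeq TAIR10.1 gene of the same locus code in 23181 of 23189 matched loci, and sequences come from that assembly.

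Counts and RPKM of isoforms were summed per locus. Counts of all 4 libraries were fitted with edgeR 4.0.16 (quasi-likelihood, TMM, filterByExpr, Benjamini-Hochberg over 16477 loci, adjusted p under 0.05), with genotype and Al as additive terms. DESeq2 1.42.0 and limma 3.58.1 served as alternatives. The length offset is a loess curve (span 0.5) of centred log2 CPM on log2 length; it was set on library sizes times TMM factors after a version on library sizes alone had been seen to shift all loci, and that version is kept as an added alternative. Ratios use RPKM + 0.5, a minimum of 1 RPKM in some library, and exact 95% counting intervals of the reads, which cover counting error only. With 1 library per group, p-values rest on the additive fit, where a difference in response between genotypes counts as error. The fit was also run on simulated counts, and the outcome of that run is not used here.

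The members and lists were chosen with earlier results of these data known. Named are the family, up to 3 listed genes per direction with the largest change that passed, and the 2 loci most like each member. KNOLLE is on 2 lists, and SUS5 and SUS6 are on the phloem and UDP-glucose lists. One listed gene that the naming rule covers is not reported here.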

Additional observations from a re-analysis of the deposited data

Results flagged for a closer look

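GSL5 and GSL10 were the members whose deposited RPKM moved in opposite directions with Al in the 2 genotypes. GSL5 had a log2 ratio of −0.48 in Col and 0.44 in coi1-2, a difference of 0.93. GSL10 had −0.53 and 0.24, a difference of 0.77. The differences were not tested, since there is 1 library per group. With RPKM divided by TMM factors both genes had positive ratios in both genotypes, at 0.17 and 0.80 in GSL5 and 0.13 and 0.60 in GSL10.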

How the results depend on the processing

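No paired analysis was possible because each group is 1 library, and leaving out 1 of the 4 leaves no residual degrees of freedom; without Col with Al, the Al value is the coi1-2 ratio. Without the length offset 0 members rose and 3 fell with Al; with it, or with the added offset on library sizes alone, 4 rose and 1 fell. The offset turned GSL1 to 0.26, GSL7 to 0.51, GSL8 to 1.11 and GSL12 to 1.26; the added one put GSL7 at 0.010, GSL8 at 0.60 and GSL12 at 0.75, with all loci at a median of −0.51. In limma on RPKM, GSL5 was at −0.019 and GSL10 at −0.14. For genotype, the offset gave −0.38, −0.10, −0.023 and −0.37 in GSL5, GSL7, GSL8 and GSL12, the added one gave −0.23 in GSL5 and −0.23 in GSL12, and limma gave 0.13 in GSL1. Members lower with Al in Col numbered 4, and 5 with a pseudocount of 0.1, 2 with a pseudocount of 1 or a filter of 5 RPKM, 1 with TMM factors, where GSL6 is likewise under 1 RPKM, and 0 when centred on loci of 4000 to 8000 bases, where 2 were higher and GSL6, GSL7 and GSL8 were at 0.20, 0.40 and 0.38; the read interval of GSL6 stayed below 0, at −8.98 to −1.08. In coi1-2 the 2 became 0 with TMM factors, where GSL6 is under 1 RPKM and at −1.37, 0 with 2 higher when centred, and 1 with the filter of 5 RPKM. The 2 members higher in coi1-2 with Al became 0 with TMM factors or when centred. Apart from the offsets and scaling themselves, the cause of these changes was not tested. Reads below about 3 per library limit GSL3 and, with Al, GSL6.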
